A study of Rattus norvegicus with 20 samples.

Results

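The circadian clock genes of the rat kidney were followed through 20 libraries as a set of 10 genes: Arntl (also called Bmal1), Clock, Npas2, Per1, Per2, Per3, Cry1, Nr1d1, Dbp and Ciart. They were taken by gene symbol from 2 deposited tables and matched between them by Ensembl identifier, and all 10 were found in both, out of 32907 genes listed in either table. Of these, 9 had enough fragments to be tested in the cyclosporine A table and 10 in the tacrolimus table. Ciart was the member that was not tested with cyclosporine A.

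The study gave wild-type male Wistar rats aged 10 to 12 weeks a calcineurin inhibitor or its vehicle for 28 days from an osmotic minipump placed under the skin, and sequenced RNA from the entire kidney. Cyclosporine A (n = 4, target trough in plasma 3 mg/ml as the series' text gives it) was set against saline (n = 4). Tacrolimus (n = 6, target trough 3.5 ng/ml) was set against a vehicle of 25% DMSO and 75% PEG500, called DMSO/PEG here (n = 6). Every animal carried a pump, and no group without one was analysed here. The labels give no hour of harvest for any library, so phase in the daily cycle could be read only as the balance of clock genes within each library. The labels call the samples of a group replicates without saying more, so the p-values measure the spread between these samples.

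The clock is a transcriptional loop that runs in nearly every cell of the kidney. ARNTL pairs with CLOCK or NPAS2 to form its positive limb, an activator that binds E-boxes in the promoters of the Per, Cry, Nr1d1, Dbp and Ciart genes. PER and CRY proteins then block that activator, and NR1D1 represses Arntl through ROR elements, so that transcripts of Arntl and Npas2 are known to peak in a phase opposite to those of Nr1d1 and Dbp. DBP acts on D-boxes and carries the rhythm to output genes, among them transporters of the renal tubule.

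The sequences that link the limbs are shown for the members whose promoter held one of the elements named above. RefSeq (assembly GRCr8) gave the 250 bases before a gene start for 9 members in 11 windows, and Cry1 was not among them. Both strands were searched for the E-box CACGTG, its variant CACGTT, the D-box TTATGTAA or TTATGCAA, and the ROR element, which is AANT followed by AGGTCA or GGGTCA, and matches stand in capitals, 5′ to 3′ on the gene's strand. A match was found in 5 of the 11 windows, belonging to 4 members, of which 1 window per member is printed.
Arntl, chr1:176766078-176766327, plus strand, with a ROR element at −19 from the gene start: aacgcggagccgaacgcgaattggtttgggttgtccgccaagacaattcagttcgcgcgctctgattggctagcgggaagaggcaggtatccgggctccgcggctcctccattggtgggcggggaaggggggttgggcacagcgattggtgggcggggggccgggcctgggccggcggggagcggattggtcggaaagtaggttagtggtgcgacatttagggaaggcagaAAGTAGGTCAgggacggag
Nr1d1, chr10:84229455-84229704, minus strand, with an E-box at −191: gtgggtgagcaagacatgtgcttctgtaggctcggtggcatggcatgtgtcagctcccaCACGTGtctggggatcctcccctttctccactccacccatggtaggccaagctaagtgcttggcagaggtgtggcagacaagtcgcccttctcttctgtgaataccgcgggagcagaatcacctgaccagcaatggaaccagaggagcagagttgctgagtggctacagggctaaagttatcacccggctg
Per2, chr9:99496994-99497243, minus strand, with a D-box at −192 and the E-box variant at −62: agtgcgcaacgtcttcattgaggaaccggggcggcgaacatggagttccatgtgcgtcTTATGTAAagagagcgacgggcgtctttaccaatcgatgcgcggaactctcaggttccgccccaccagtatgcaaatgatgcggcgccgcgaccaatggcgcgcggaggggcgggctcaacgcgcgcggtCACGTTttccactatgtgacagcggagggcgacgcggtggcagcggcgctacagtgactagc
Ciart, chr2:186112247-186112496, minus strand, with E-boxes at −93, −35 and −21: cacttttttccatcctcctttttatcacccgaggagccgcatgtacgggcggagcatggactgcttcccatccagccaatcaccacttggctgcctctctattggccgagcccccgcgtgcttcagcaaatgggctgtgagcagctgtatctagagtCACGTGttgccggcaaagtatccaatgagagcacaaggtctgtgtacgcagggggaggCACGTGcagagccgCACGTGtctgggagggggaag

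Among 33469 RefSeq promoters of the same length, CACGTG was present in 5.59%, CACGTT in 4.07%, the D-box in 1.60% and the ROR element in 0.400%. The ROR element before Arntl is the kind of site through which NR1D1 is known to act, and Ciart was the member with the most E-boxes in its window. The other Nr1d1 window held the variant on its reverse strand, written AACGTG, at −174. The windows of Clock, Npas2, Per1, Per3 and Dbp held none of these letters, which says nothing of sites outside them.

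Levels are in FPKM, the number of fragments divided by the gene's length and by a measure of library depth. Assigned fragments came to between 30468799 and 34308987 per library for cyclosporine A with saline, and between 31670202 and 39358485 for tacrolimus with DMSO/PEG. Mitochondrial genes took 49.7 to 68.6% of the fragments in the saline libraries and 80.2 to 90.8% in the cyclosporine A libraries, against 10.5 to 13.7% with DMSO/PEG and 10.8 to 15.9% with tacrolimus. Fragments of nuclear genes came to 10283990 to 17256836 per saline library and 2905876 to 6549317 per cyclosporine A library. Levels of the cyclosporine A table are therefore given as rescaled FPKM, on median-of-ratios size factors that level the median nuclear gene between libraries, and the counts and changes on the deposited scaling are given apart. The tacrolimus table was deposited on such size factors already. The 2 tables were normalized separately, and no level was tested across them. In RNA from a whole organ, fewer cells of a type and less RNA per cell cannot be told apart.

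Markers of the tubule segments were present in both tables. In the cyclosporine A table the summed level of 3 thick ascending limb markers ran from 284 to 538 rescaled FPKM with saline and from 114 to 220 with the drug. That sum is mostly Umod, with Slc12a1 also lower, while Cldn16 averaged 3.36 with saline and 4.08 with the drug. The sum of 3 urothelial markers ran from 1.48 to 3.67 and from 6.84 to 12.2. With DMSO/PEG, 3 markers of the distal convoluted tubule summed to 97.7 to 114 FPKM, and with tacrolimus to 31.8 to 58.2, with Pvalb, which marks that segment, at 0 in every library of both tables. The sum of 3 adipocyte markers ran from 16.6 to 56.8 FPKM with DMSO/PEG and from 6.38 to 29.9 with tacrolimus, where Ucp1, a marker of brown fat, fell by 5.39 on the log2 scale (limma adjusted p = 0.00522). The part of these shifts in the clock gene values was not tested.

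Under cyclosporine A no clock gene passed the test. None of the 9 members tested was called at an adjusted p under 0.05 (limma, Benjamini-Hochberg), where 0.505% of the 13455 genes tested were. None had a group range clear of the other's, where 10.9% of genes did, and none reached an unadjusted p under 0.05, where 16% of genes did. With limma-voom on the recovered fragments the count of members called was also 0. The widest feature of the members in this table lay inside the saline group, whose replicate 2 had the positive limb low and the negative limb high.

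Arntl (ENSRNOG00000014448, chromosome 1, 178039063 to 178137465 on rn6), the obligate partner in the activator, stood at 4.41, 1.09, 4.42 and 4.05 rescaled FPKM in saline replicates 1 to 4. With cyclosporine A it stood at 2.23, 3.54, 2.79 and 3.34. Saline replicate 2 lay below all 4 treated libraries and the other saline libraries above them, so the groups overlapped through 1 library. The fitted log2 change was −0.06 (SE 0.41, limma adjusted p = 0.959). Without saline replicate 2 it was −0.53 (limma unadjusted p = 0.0257, adjusted p = 0.328), and the groups no longer overlapped. That library was singled out by its clock gene values, so p-values without it, here and below, are a description and not a test.

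Clock (ENSRNOG00000002175, chromosome 14, 34446616 to 34502218), the partner of ARNTL whose transcript is known to cycle little, measured 2.47, 2.37, 2.37 and 2.33 rescaled FPKM with saline. It measured 2.66, 2.53, 2.82 and 2.24 with cyclosporine A. It was the steadiest member in the saline libraries, and its log2 change of 0.09 had an SE of 0.15 (limma adjusted p = 0.816). Its treated range enclosed the vehicle range on account of cyclosporine A replicate 4 alone. Npas2 (ENSRNOG00000013408, chromosome 9, 45901741 to 46081880), which can stand in for CLOCK, read 0.641, 0.240, 0.641 and 0.647 with saline. It read 0.398, 0.547, 0.422 and 0.995 with the drug, a log2 change of 0.10 (SE 0.38, limma adjusted p = 0.931). Saline replicate 2 was again the low library, on 32 to 187 fragments per library.

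In the negative limb, Per1 (ENSRNOG00000007387, chromosome 10, 55687050 to 55695994), a PER gene that glucocorticoids and other acute signals are known to induce, gave 0.659, 2.54, 1.41 and 1.26 rescaled FPKM with saline. With cyclosporine A it gave 1.86, 1.94, 1.27 and 3.83. The log2 change was 0.60, with a 95% interval from −0.33 to 1.53 (limma adjusted p = 0.525), and it ran from 0.29 to 0.89 when single libraries were left out. Cyclosporine A replicate 4 lay above every vehicle library, and the other treated libraries lay within the vehicle range.

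Per2 (ENSRNOG00000020254, chromosome 9, 98555169 to 98597359), a core repressor, was at 0.557, 1.88, 0.781 and 0.779 with saline. The cyclosporine A libraries had it at 1.91, 1.02, 0.794 and 1.08. Apart from saline replicate 2, every treated library was above every vehicle library, and the log2 change was 0.31 over all libraries (SE 0.38, limma adjusted p = 0.747) and 0.64 without saline replicate 2. Per3 (ENSRNOG00000018413, chromosome 5, 168086998 to 168123395), the PER gene least needed for the rhythm itself, was at 0.528, 1.63, 0.347 and 0.542 with saline and at 0.765, 0.438, 1.27 and 0.896 with the drug. Its log2 change of 0.26 had an SE of 0.45 (limma adjusted p = 0.834), and it was 0.66 without saline replicate 2.

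Cry1 (ENSRNOG00000006622, chromosome 7, 24534615 to 24634097), the repressor whose transcript is known to peak later than those of the PER genes, reached 0.838, 0.209, 1.29 and 0.880 rescaled FPKM with saline. It reached 0.618, 0.457, 0.558 and 0.919 with cyclosporine A, a log2 change of −0.14 (SE 0.45, limma adjusted p = 0.919). Its lowest library was saline replicate 2, as for Arntl and Npas2 and unlike the other members of the negative limb. These values rest on 25 to 180 fragments per library.

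Nr1d1 (ENSRNOG00000009329, chromosome 10, 86683875 to 86690815), which encodes the REV-ERBα repressor of Arntl, stood at 4.20, 10.0, 2.51 and 1.88 with saline. It stood at 6.54, 3.66, 5.32 and 2.73 with the drug, and its log2 change was 0.19 (SE 0.47, limma adjusted p = 0.888). Dbp (ENSRNOG00000021027, chromosome 1, 101687855 to 101692846), the D-box activator at the output of the loop, stood at 8.35, 56.3, 10.9 and 9.28 with saline and at 30.8, 12.1, 23.3 and 11.9 with cyclosporine A. Saline replicate 2 held the highest value of both genes in the table. Dbp gave a log2 change of 0.28 (SE 0.58, limma adjusted p = 0.863), and without saline replicate 2 it gave 0.92 (unadjusted p = 0.0223, adjusted p = 0.313).

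Ciart (ENSRNOG00000042717, chromosome 2, 197987705 to 197991574), a repressor of the ARNTL and CLOCK activator, had at most 47 fragments in any library of this table. Its rescaled FPKM was 0.0679, 0.760, 0.0969 and 0 with saline and 0.281, 0, 0.312 and 0.593 with cyclosporine A. The high vehicle library was once more replicate 2.

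**Figure D1:**
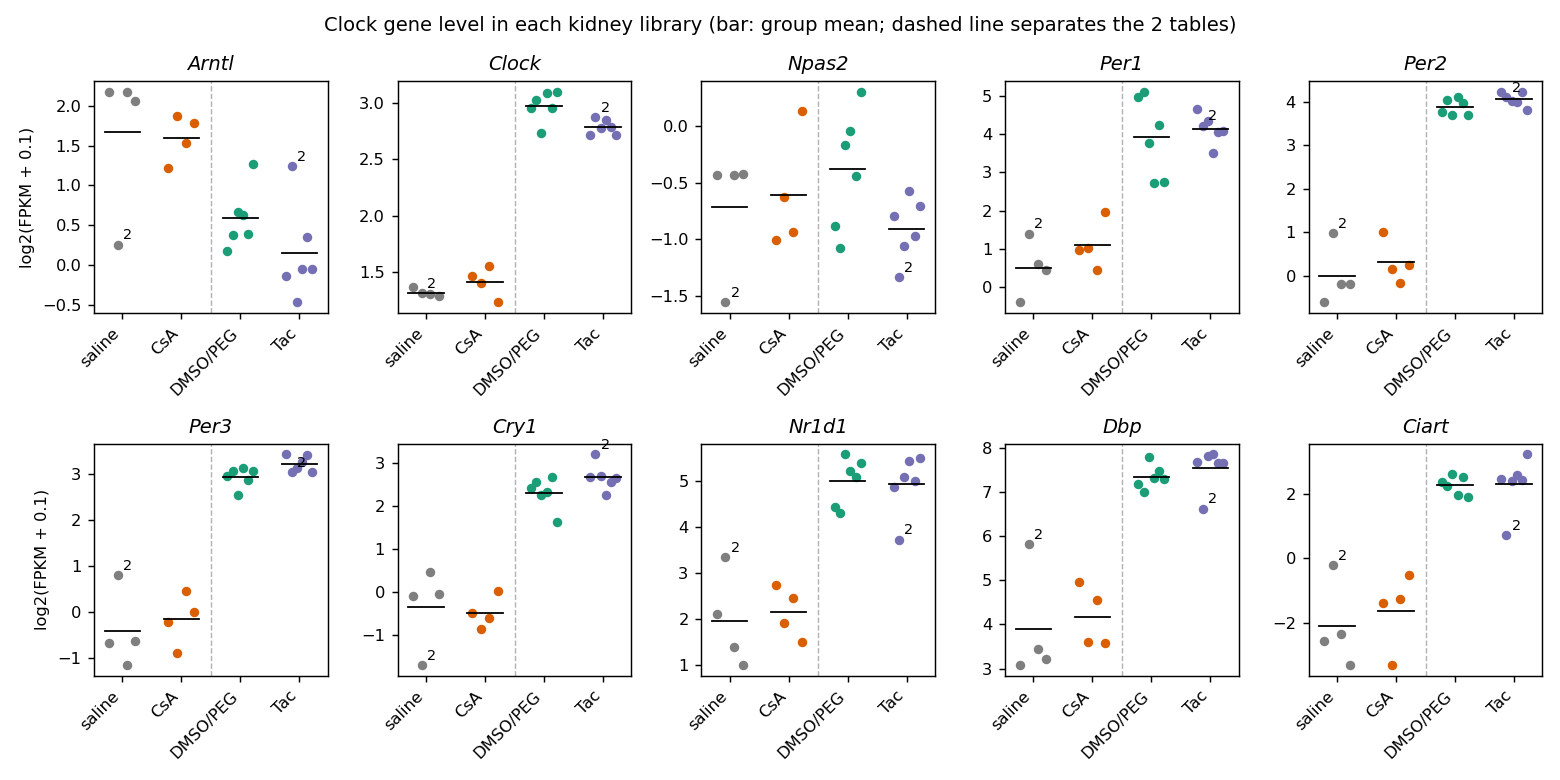
Level of each of the 10 clock genes as log2(FPKM + 0.1), 1 point per library, with a bar at the group mean and the number 2 beside saline replicate 2 and tacrolimus replicate 2; values left of the dashed line are rescaled FPKM and those right of it deposited FPKM, from tables normalized separately. Saline replicate 2 is the lowest point of its table for Arntl (1.09 FPKM), Npas2 and Cry1 and the highest for Dbp (56.3 FPKM), Nr1d1, Per3 and Ciart.

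Once saline replicate 2 was left out, 3 of the 9 members, namely Arntl, Per2 and Dbp, had groups that did not overlap, against 14.1% of all tested genes. At an unadjusted p under 0.05 there were then 2 members, Arntl and Dbp, against 12.4% of genes, and no member was called. The omission was picked by the values of these same members, so neither count is a test. The mitochondrial share of saline replicate 2, 68.6%, was the highest of the saline libraries and below every treated library. Leaving out any other single library freed none of the members from overlap, except Clock without cyclosporine A replicate 4, where 16.1% of genes did not overlap; over those 7 other libraries the share of genes ran from 13.1 to 17%. The part of the mitochondrial share in the clock values of saline replicate 2 was not tested.

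On the deposited scale, which counts mitochondrial fragments in the depth, 6 members were called lower with cyclosporine A, namely Arntl, Clock, Npas2, Per2, Cry1 and Nr1d1. On that scale 79.4% of all tested genes were called, 79.3% of all tested genes as lower, and the median gene changed by −1.26 on the log2 scale. The 9 members lay between −1.35 for Arntl and −0.65 for Per1. Relative to the median gene they ran from −0.09 for Arntl to 0.61 for Per1, so the direction of 7 of them turned with the scaling and their calls followed the level of all genes.

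Under tacrolimus no clock gene passed the test either. None of the 10 members was called (limma, adjusted p under 0.05), where 0.316% of 15493 genes were, and none had groups clear of each other, where 0.975% of genes did. An unadjusted p under 0.05 was reached by 3 of the 10 members and by 8.55% of all genes. These were Clock and Npas2, both lower, and Per3, which was higher, and no test was made of that share.

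Arntl ran from 1.03 to 2.32 FPKM with DMSO/PEG (median 1.33) and from 0.624 to 2.27 with tacrolimus (median 0.867). In 4 of the 6 tacrolimus libraries it lay below the lowest vehicle library. Tacrolimus replicate 2, at 2.27, stood apart from the rest of its group, and the log2 change was −0.43 (SE 0.26, limma adjusted p = 0.717). Clock ran from 6.56 to 8.50 with DMSO/PEG (median 7.88) and from 6.48 to 7.24 with tacrolimus (median 6.79). Its log2 change of −0.19 had the smallest p of the members (SE 0.07, unadjusted p = 0.0183, limma adjusted p = 0.429). DMSO/PEG replicate 3 was the vehicle library within the treated range. Without it, an omission picked by these values, the groups did not overlap, where those of 2.03% of all genes did not. Leaving out any other single library of this table freed no member from overlap.

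Npas2 spread from 0.375 to 1.13 FPKM among the vehicle libraries (median 0.715) and from 0.297 to 0.572 with tacrolimus (median 0.445). Its log2 change of −0.52 was the largest of the members in size (SE 0.23, unadjusted p = 0.0401, limma adjusted p = 0.537). The 3 positive-limb genes thus all had lower means with tacrolimus, without any of them passing the adjusted threshold.

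Per1 ran from 6.52 to 34.5 FPKM between vehicle libraries (median 16.2), the widest of the members on the log2 scale, and from 11.4 to 25.2 with tacrolimus (median 17.7). Its log2 change was 0.21 with an SE of 0.40 (limma adjusted p = 0.942). Per2 was held within 12.8 to 17.2 FPKM with DMSO/PEG (median 14.5) and 14.0 to 18.7 with tacrolimus (median 16.6), a log2 change of 0.19 (SE 0.09, limma adjusted p = 0.634). The narrow spread of Per2 contrasted with that of Per1 in the same libraries.

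Per3 measured 5.72 to 8.68 FPKM with DMSO/PEG (median 7.99) and 8.12 to 10.7 with tacrolimus (median 9.12). Its log2 change was 0.28 (SE 0.11, unadjusted p = 0.0235, limma adjusted p = 0.459). Cry1 measured 3.02 to 6.33 with DMSO/PEG (median 5.10) and 4.70 to 9.14 with tacrolimus (median 6.23), a log2 change of 0.36 (SE 0.18, limma adjusted p = 0.620). Tacrolimus replicate 2 held the highest Cry1 value of the table, and DMSO/PEG replicate 6, the vehicle library with the most Arntl, held the lowest.

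Nr1d1 ran from 19.4 to 47.5 FPKM with DMSO/PEG (median 35.3) and from 13.0 to 44.8 with tacrolimus (median 32.6), and its log2 change was −0.07 (SE 0.30, limma adjusted p = 0.976). Dbp ran from 127 to 220 (median 158) and from 97.9 to 230 (median 203), a log2 change of 0.21 (SE 0.19, limma adjusted p = 0.858). Ciart ran from 3.65 to 6.02 (median 4.87) and from 1.55 to 9.34 (median 5.36), a log2 change of 0.04 (SE 0.32, limma adjusted p = 0.987). In all 3 genes the lowest library of the table was tacrolimus replicate 2, the library of its group with the most Arntl.

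**Figure D2:**
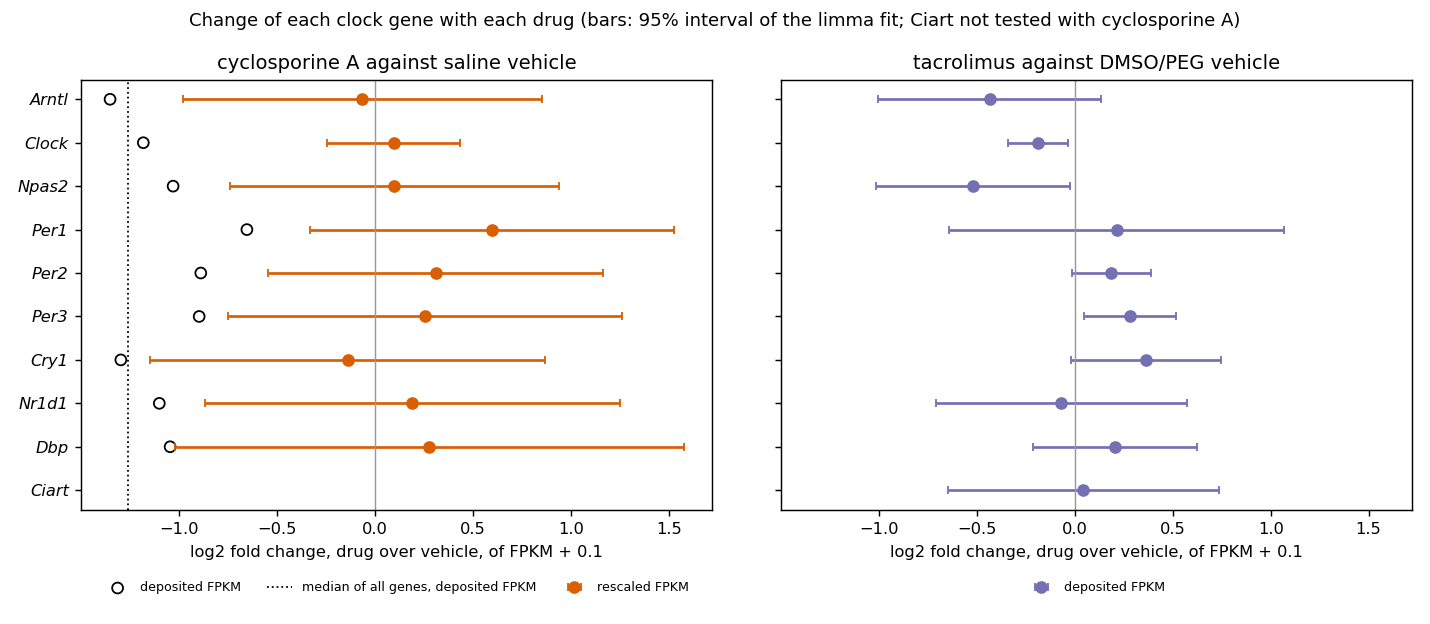
Log2 fold change of FPKM + 0.1, drug over vehicle, for each clock gene (filled points, with the 95% interval of the limma fit as bars); open circles give the deposited scale of the cyclosporine A table and the dotted line its median over all genes, −1.26. The intervals of all 9 members tested with cyclosporine A include 0, and with tacrolimus those of Clock, Npas2 and Per3 do not, although no adjusted p was under 0.05.

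The change with cyclosporine A was also set against the change with tacrolimus, gene by gene, from both limma fits. No member differed at an adjusted p under 0.05, where 1.39% of 13392 genes did, and the smallest unadjusted p of a member was 0.112. The smallest adjusted p was that of Clock, whose change with cyclosporine A exceeded its change with tacrolimus by 0.29 on the log2 scale (SE 0.17, adjusted p = 0.443). Drug, vehicle and table differ together here, and their parts cannot be told apart.

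The phase relation was read in each library as the limb ratio, the mean log2(FPKM + 0.1) of Arntl, Clock and Npas2 minus the mean of the 7 members of the negative limb and output. A high ratio means that the activator genes were relatively abundant. It was 0.91, −1.49, 0.70 and 0.90 in saline replicates 1 to 4, with a mean of 0.26 ± 1.17 (SD, n = 4). In the cyclosporine A libraries it was −0.52, 0.64, −0.12 and 0.08, with a mean of 0.02 ± 0.48 (SD, n = 4). The treated libraries lay between the 3 high saline libraries and the low one, and the difference of the means, −0.24, was smaller than the spread within either group. It was −0.82 without saline replicate 2 and between −0.45 and −0.02 without any other single library.

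With DMSO/PEG the limb ratio ran from −3.26 to −2.12, with a mean of −2.89 ± 0.45 (SD, n = 6). With tacrolimus it ran from −3.79 to −2.73, with a mean of −3.45 ± 0.38 (SD, n = 6). The difference of the means, −0.56, was larger than either SD, but the ranges overlapped through tacrolimus replicate 2 at −2.73 and the DMSO/PEG libraries below it. The mean of the positive limb was 0.38 lower on the log2 scale with tacrolimus (from 1.06 to 0.68), and that of the negative limb was 0.17 higher (from 3.95 to 4.13).

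**Figure D3:**
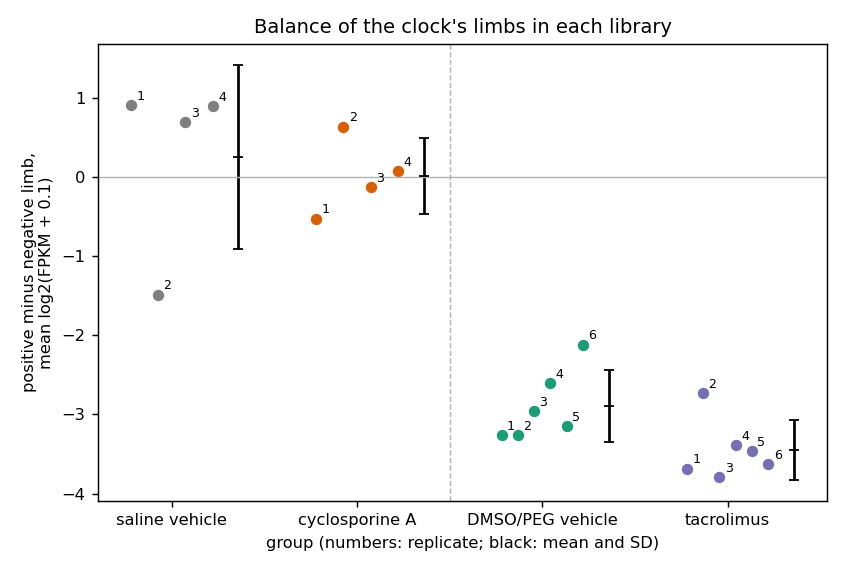
Limb ratio of each library (mean log2(FPKM + 0.1) of Arntl, Clock and Npas2 minus that of the 7 other members), numbered by replicate, with the mean and SD of each group in black; the dashed line separates the 2 tables. The 8 libraries of the cyclosporine A table lie from −1.49 to 0.91 and the 12 of the tacrolimus table from −3.79 to −2.12.

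The balance of the limbs differed between the tables. A ratio of genes within a library does not depend on the depth of that library, apart from the pseudocount. The limb ratio of the cyclosporine A table, −1.49 to 0.91, lay above that of the tacrolimus table, −3.79 to −2.12, with no overlap, vehicles included. Some genes of the cyclosporine A table, Clock, Nr1d1, Dbp and Ciart among them, gave whole fragments only with a shorter length than the listed one, and Per3 was listed at 4997 bases there and 6466 in the tacrolimus table. With the same lengths in both tables the first range became −1.44 to 0.94.

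Gene by gene, Arntl was above Per2 in 7 of 8 libraries of the cyclosporine A table and in 0 of 12 of the tacrolimus table. It was above Cry1 in 8 of 8 and 0 of 12, and above Nr1d1 in 4 of 8 and 0 of 12. It was above Ciart in 8 of 8 and in 1 of 12, tacrolimus replicate 2. Nr1d1 was taken at 2323 bases in the first table and 2549 in the second, which raises its FPKM in the first. Its count was not redone with the same lengths, and in cyclosporine A replicate 2 Nr1d1 stood at 3.66 and Arntl at 3.54 rescaled FPKM. Dbp exceeded Arntl in every library, by 1.9 to 51.5 times in the cyclosporine A table and by 43.2 to 358 times in the tacrolimus table. These ranges overlapped through saline replicate 2 and tacrolimus replicate 2, and with the same lengths the first was 1.3 to 35.2 times, clear of the second. The mitochondrial share ran from 49.7 to 90.8% in the first table and from 10.5 to 15.9% in the second. In the vehicle libraries 4 proximal tubule markers summed to 126 to 195 rescaled FPKM in the first and 1810 to 1940 FPKM in the second. Sums of 3 podocyte markers were 0.551 to 1.75 and 41.5 to 56.4, and of 3 principal cell markers 89 to 162 and 229 to 312. Those of 3 intercalated cell markers overlapped, at 54.8 to 115 and 104 to 125. Rescaled FPKM keeps mitochondrial fragments in the overall depth of the first table. Levels of its nuclear genes are thus lowered as a whole against the second, and these sums do not compare cell content. Drug experiment, vehicle and table change together with the mitochondrial share and the marker sums, and the hour of harvest is not given. Their parts in the difference of limb balance cannot be told apart.

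By level per length, Dbp led the members in all 4 groups and Nr1d1 came next. With DMSO/PEG the mean FPKM then fell from Per1 and Per2 through Clock, Per3 and Cry1 to Ciart, Arntl and Npas2, and with tacrolimus the order was the same except that Per3 stood above Clock. The ranges of Dbp stood clear of those of Nr1d1 in both groups of that table, and Per2 stood clear of the gene after it, while Nr1d1, Per1 and Per2 overlapped as neighbours. Arntl and Npas2 were the lowest in both groups. In the cyclosporine A table Arntl and Clock followed Nr1d1, then Per1 and Per2, and Ciart was last. There every neighbour overlapped the next in both groups, except that Dbp stood clear of Nr1d1 with cyclosporine A. The order uses each table's own lengths, for Clock 7137 bases there and 9419 in the tacrolimus table, and was not redone with the same lengths.

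Across the 8 libraries of the cyclosporine A table, the level of Arntl moved opposite to most of the negative limb. Of its 9 relations with the other members, 7 had an adjusted p under 0.05 (exact permutation test of Pearson's r, two-sided, Benjamini-Hochberg over the 9 relations). Dbp was the closest, with r = −0.96 (exact permutation p = 0.000248, adjusted 0.00223) and Spearman's rho = −0.90 (exact permutation p = 0.00456, adjusted 0.0411). By Spearman's rho 3 of the 9 relations passed, those with Dbp, Per2 and Per3. Nr1d1 had r = −0.86 (exact permutation p = 0.0037, adjusted 0.0137) and rho = −0.79, which did not pass (exact permutation p = 0.0279, adjusted 0.0628). Per2 had r = −0.84 and rho = −0.83, and Per3 r = −0.83 and rho = −0.86. Npas2 and Cry1 moved with Arntl instead, at r = 0.82 and 0.86.

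The remaining relations in this table were r = −0.72 for Ciart, which passed, and r = −0.48 for Per1 and −0.14 for Clock, which did not. Ciart had at most 47 fragments here and 0 in saline replicate 4 and cyclosporine A replicate 2, so its r rests on values near the floor. By Spearman's rho, −0.68, it did not pass (exact permutation p = 0.0729, adjusted 0.107). Saline replicate 2 and cyclosporine A replicate 1 were farthest from the median of Arntl, and without both none of the 9 relations passed the adjusted threshold. Dbp then had r = −0.90 (n = 6, exact permutation p = 0.0139, adjusted 0.125) and Per3 r = −0.86 (exact permutation p = 0.0319, adjusted 0.144). For Dbp and Per3 r was thus about as large without those libraries as with them, at a smaller n. Npas2, Per2, Cry1, Nr1d1 and Ciart had r between −0.57 and 0.64 without them, weaker than over all 8. Leaving out the libraries with the most extreme Arntl also narrows the range of Arntl. Groups of 4 are too small for a value within each group.

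Across the 12 libraries of the tacrolimus table none of the 9 relations passed the adjusted threshold. Ciart had r = −0.70 (permutation p = 0.00915, adjusted 0.0823) with rho = −0.48, and Dbp had r = −0.65 (permutation p = 0.0233, adjusted 0.105) with rho = −0.59. Without DMSO/PEG replicate 6 and tacrolimus replicate 2, the libraries farthest from the median of Arntl, r was −0.35 for Ciart and −0.42 for Dbp, both weaker than over all 12, on a range of Arntl that leaving them out narrows. Within groups of 6 none passed either. Dbp had r = 0.23 within DMSO/PEG and −0.92 within tacrolimus (exact permutation p = 0.642 and 0.0403, adjusted 0.722 and 0.252). Cry1, which moved with Arntl in the other table, had r = −0.91 within DMSO/PEG (exact permutation p = 0.0292, adjusted 0.0958) and 0.69 within tacrolimus (exact permutation p = 0.168, adjusted 0.252).

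**Figure D4:**
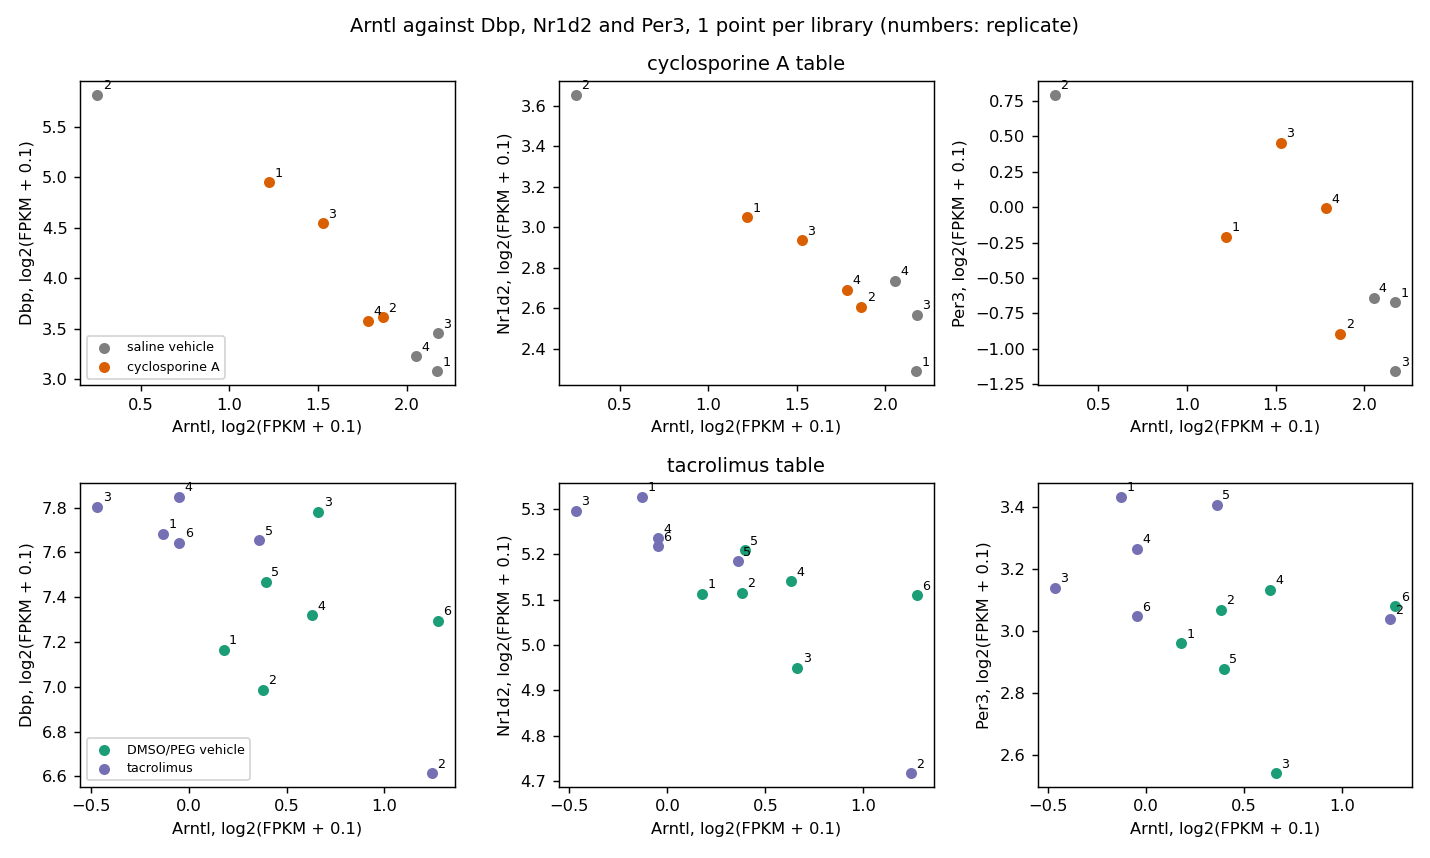
Level of Dbp, Nr1d2 and Per3 against that of Arntl, each as log2(FPKM + 0.1), 1 point per library numbered by replicate, with the cyclosporine A table (rescaled FPKM) above and the tacrolimus table below. In the upper row the points fall from upper left, where saline replicate 2 lies, to lower right (Dbp r = −0.96), and in the lower row tacrolimus replicate 2 lies at the lower right for Dbp and Nr1d2 (Dbp r = −0.65).

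Pairs of members were also described by the correlation of their deviations from the group mean. Of the 21 pairs of a positive-limb and a negative-limb gene, 16 correlated negatively over the 8 libraries of the cyclosporine A table (median r = −0.51) and 14 over the 12 of the tacrolimus table (median r = −0.305). The 21 pairs within the negative limb had a median r of 0.572 in the first table, where 6 were negative, and −0.0881 in the second, where 13 were. Of the 3 pairs within the positive limb, 2 were negative in the first table (Arntl with Npas2 at 0.834, Arntl with Clock at −0.127 and Clock with Npas2 at −0.608) and 0 in the second (0.0211 to 0.373). All members of a library share its depth and scaling.

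Arntl was then set against 9070 genes tested in both tables with a mean of at least 100 fragments in each, by the correlation of deviations from the group mean averaged over both tables as Fisher z. The gene most opposite to Arntl was Nr1d2, the paralogue of Nr1d1 that encodes REV-ERBβ, with r = −0.96 over 8 libraries and −0.79 over 12. Dbp was next, with r = −0.97 and −0.61. After them came Ppp6r3, Paqr9, Apool, Depdc5, Cdk12 and LOC102549506. Tef, which encodes another D-box activator, stood at rank 9062, at r = −0.83 and −0.66, and Nr1d1 at rank 9040. The genes most like Arntl were Macroh2a1 (r = 0.75 and 0.84), Sart3, Pus10, Irak4, Ndufb3, Tnfsf10, Prdm16 and Eng. Npas2, Cry1 and Ciart fell under the minimum of fragments and were not ranked.

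This ranking depended on single libraries. Without saline replicate 2 and tacrolimus replicate 2, Nr1d2 had r = −0.81 over 7 libraries and −0.36 over 11, at rank 8946 of 9070. Dbp then had r = −0.92 and 0.09, at rank 8938, and Nr1d1 r = −0.57 and 0.50, at rank 4698. Tef had r = −0.51 and −0.25, at rank 7985. Macroh2a1 was at rank 7, with r = 0.95 and 0.71, while Tnfsf10, Ndufb3 and Prdm16 fell to ranks 2155, 2522 and 3145.

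Nr1d2 stood at 4.79, 12.5, 5.83 and 6.56 rescaled FPKM with saline and at 8.18, 6.00, 7.55 and 6.36 with cyclosporine A. In the tacrolimus table it ran from 30.8 to 36.9 FPKM with DMSO/PEG and from 26.2 to 40.1 with tacrolimus, where replicate 2 was again the lowest. Its log2 change was 0.01 with cyclosporine A (SE 0.27, limma adjusted p = 0.990; −1.30 and 0.0026 on the deposited scale) and 0.06 with tacrolimus (SE 0.09, limma adjusted p = 0.934).

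The wider clock machinery was read from a list of 17 genes, which holds Cry2, Nr1d2, the Ror and Bhlhe genes, Nfil3, Tef, Hlf and the kinases and ligase parts that set PER and CRY stability. Of these, 15 were tested in each table, and none was called with either drug (limma), where 0.505% of all genes were with cyclosporine A and 0.316% with tacrolimus. At an unadjusted p under 0.05 there was 1 of the 15, lower, with cyclosporine A, against 16% of all genes, and 3, all higher, with tacrolimus, against 8.55%. With cyclosporine A 10 of the 15 lay below 0, with a median log2 change of −0.15 against −0.02 for all genes, and with tacrolimus 11 lay above 0, with a median of 0.05 against 0.00. On the deposited scale 14 of the 15 were called with cyclosporine A, with a median of −1.38, where 79.4% of all genes were called. The list's lowest value with cyclosporine A was that of Hlf, a PAR bZIP activator like DBP, at −2.24 (SE 0.74, limma adjusted p = 0.185). Its mean was 2.94 ± 0.94 rescaled FPKM with saline and 0.798 ± 0.586 with cyclosporine A (SD, n = 4 each). With tacrolimus Hlf was the highest of the list, at 0.23 (limma adjusted p = 0.343).

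A list of 10 clock-output genes of the kidney, among them Wee1, Usp2, Scnn1a, Sgk1, Slc9a3 and Slc6a9, gave the same count. All 10 were tested in both tables and none was called with either drug (limma), where 0.505% and 0.316% of all genes were. At an unadjusted p under 0.05 there were 4 of the 10, all higher, with cyclosporine A, against 16% of all genes, and 3, of which 1 was higher and 2 lower, with tacrolimus, against 8.55%. On the deposited scale 7 of the 10 were called with cyclosporine A, with a median of −1.19, where 79.4% of all genes were called, with a median of −1.26. On rescaled FPKM their log2 changes ran from −0.54 for Usp2 to 1.64 for Slc6a9 with cyclosporine A (limma adjusted p = 0.478 and 0.180). With tacrolimus they ran from −0.36 for Sgk1 to 0.45 for Slc6a9 (limma adjusted p = 0.900 and 0.152). Slc6a9, a glycine transporter, thus had the highest value of the list with both drugs without passing the threshold.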

How the data were processed

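RNA of 20 whole kidneys was sequenced, 1 library per sample. The submitters' processing notes name HISAT2 and the build rn6; the counting program, annotation release and strand setting are not given in the sources used here, and overlapping or antisense genes were not separated. The authors deposited FPKM per gene, with Ensembl identifier, symbol, position and length, in 1 table per drug with its vehicle. Fragments were recovered from the FPKM with the listed length (74.1% of values above 0 whole within 0.0001 in the cyclosporine A table, 100% in the other) or a shorter one, and used to filter genes, to rescale the cyclosporine A table and in the TMM and voom alternatives. Genes needed 10 fragments at the median library size in as many libraries as the smaller group and 15 in total. log2(FPKM + 0.1) was fitted with limma 3.58.1 in R 4.3.3 (eBayes with trend, group alone, two-sided, Benjamini-Hochberg over all genes tested, called under 0.05); this scale understates changes of low genes. The script was tested on simulated data. The named genes were the 10 members, list genes past the threshold or at a list's ends, and the 8 genes most like and most unlike Arntl. Members and lists were chosen with earlier results of these data known. Alternatives were the deposited or TMM scaling, pseudocounts of 1 and 0.01, no filter, voom, array weights, a replicate block, the mitochondrial share as covariate and leaving out each library.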

Additional observations from a re-analysis of the deposited data

Results flagged for a closer look

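A single library stood apart from the rest of its group, by the gap to its nearest neighbour over the whole range of the group (Dixon's 95% value), in 10 of 44 groups of values examined. Chance alone marks about 1 in 20 such groups, and the members of a library are not independent of each other. Of the 10, 7 belong to saline vehicle replicate 2. In that library Arntl was at 1.09 and Npas2 at 0.240 rescaled FPKM, far below the other 3 saline libraries. Per2 at 1.88, Per3 at 1.63, Dbp at 56.3 and Ciart at 0.760 rescaled FPKM were far above them. The limb ratio of the same library was −1.49, against 0.70 to 0.91 in the other saline libraries.

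In the tacrolimus table Arntl was far above the rest of its group in DMSO/PEG replicate 6, at 2.32 FPKM, and in tacrolimus replicate 2, at 2.27 FPKM. Dbp was far below its group in tacrolimus replicate 2, at 97.9 FPKM.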

How the results depend on the processing

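The count of genes called with cyclosporine A depended on the processing: from 68 it became 10689 on deposited FPKM, 269 with voom, 30 without a filter and 0 with the mitochondrial share as covariate, and it ran from 1 to 93 when single libraries were left out (2, 21, 3 and 1 without saline replicates 1 to 4, and 9 and 3 without cyclosporine A replicates 1 and 3). The clock genes called rose from 0 to 6 on deposited FPKM and stayed at 0 under the other alternatives run. On deposited FPKM the log2 change turned to −1.18 for Clock, −1.03 for Npas2, −0.65 for Per1, −0.89 for Per2, −0.90 for Per3, −1.10 for Nr1d1 and −1.05 for Dbp. With the mitochondrial share as covariate it turned to 1.59 for Arntl, −1.80 for Per1, −1.31 for Per2, −1.11 for Per3, 0.60 for Cry1, −0.54 for Nr1d1 and −2.02 for Dbp, none called, and that share separates the groups. Npas2 turned to −0.026 with voom and −0.084 with array weights. The cause was not tested.

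Leaving out single libraries moved the change with cyclosporine A from −0.53 to 0.11 for Arntl, −0.18 to 0.23 for Npas2, −0.59 to 0.13 for Cry1, −0.13 to 0.65 for Nr1d1, 0.079 to 0.64 for Per2, 0.0086 to 0.66 for Per3 and 0.0057 to 0.92 for Dbp, and the members without overlap from 0 to 3, an alternative chosen after seeing the data, as was the ranking by likeness to Arntl without 2 libraries. With tacrolimus it moved Arntl from −0.65 (without tacrolimus replicate 2) to −0.30, Cry1 from 0.23 (without DMSO/PEG replicate 6) to 0.44, Dbp from 0.14 (without DMSO/PEG replicate 2) to 0.39 (without tacrolimus replicate 2), Per1 from −0.028 to 0.45, Nr1d1 from −0.21 to 0.17 and Ciart from −0.14 to 0.36. Genes called with tacrolimus rose from 49 to 97 with array weights and ran from 36 to 49 without single libraries, and no member was called under any of the 20 alternatives. Genes that differed between the drugs' changes went from 186 to 10245 on deposited FPKM and from 15 to 226 without single libraries. The 7 relations of Arntl that passed in the cyclosporine A table became 0 without the 2 libraries farthest from its median. The difference in limb ratio, run with other pseudocounts, without Clock and Cry1 and without single libraries, stayed below 0 in those settings; without single libraries it was −0.82 to −0.02 with cyclosporine A and −0.70 to −0.40 with tacrolimus. It was not run with the covariate or without Ciart.

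Same-numbered libraries of drug and vehicle deviated together at r of −0.0967 to 0.149 for cyclosporine A with saline, where 1 of 4 pairs was over 0.1. For tacrolimus with DMSO/PEG r was −0.108 to 0.162, where 2 of 6 were. The labels do not say whether the numbers pair the samples, and r this small over so few libraries cannot settle it. With the replicate number as a block the genes called went from 68 to 4 and from 49 to 42, and the clock genes called stayed at 0. Nuclear fragments, fewest in the cyclosporine A libraries, limit what can be seen of Cry1 and Ciart in that table. Npas2 had few fragments in both tables, 32 to 187 per library with cyclosporine A and saline and 50 to 181 with tacrolimus and DMSO/PEG.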

Other observations

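Inducers that are known to act on Per1 and other clock genes from outside the loop were read from a pair of further lists. Of 8 glucocorticoid-induced genes, 8 had log2 changes above 0 with cyclosporine A, with a median of 0.57 against −0.02 for all genes, of which 47.5% lay above 0. At an unadjusted p under 0.05 there were 3 of the 8, all higher, against 16% of all genes. On deposited FPKM the median of the list was −0.58, against −1.26 for all genes, and 3 of the 8 were called, against 79.4% of all genes. On rescaled FPKM 1 of the 8 was called, Errfi1, a feedback inhibitor of the EGF receptor. Its log2 change was 1.29 (SE 0.19, limma adjusted p = 0.0316), where 0.297% of genes were called higher. On deposited FPKM the change of Errfi1 was −0.033. The call held in 2 of the 8 fits that each left out 1 library, without cyclosporine A replicate 2 or 4, and in the others the log2 change was 1.15 to 1.37 with an adjusted p from 0.0539 to 0.105. It was also lost without a filter (adjusted p = 0.0506), with the replicate block (adjusted p = 0.078) and with the mitochondrial share as covariate (1.22, adjusted p = 1). With tacrolimus 7 of these genes were tested, without Tsc22d3, and all 7 lay below 0, where 50.1% of all genes lay above it. None was called or reached an unadjusted p under 0.05, where 0.316% and 8.55% of all genes did, with a median of −0.26 and the lowest adjusted p at 0.792.

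None of 8 immediate early genes was called with either drug (limma). At an unadjusted p under 0.05 there were 4 of them, all higher, with cyclosporine A, against 16% of all genes tested, and 1, higher, with tacrolimus, against 8.55%. On deposited FPKM 3 of the 8 were called with cyclosporine A, with a median of −0.61, where 79.4% of all genes were called, with a median of −1.26. Egr1, a growth-factor-induced transcription factor, had the highest value of the list in both tables. Its log2 change was 1.79 with cyclosporine A (SE 0.36, limma adjusted p = 0.0652; 0.56 and 0.176 on deposited FPKM) and 1.19 with tacrolimus (SE 0.30, limma adjusted p = 0.154).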
